A study of Capra hircus with 24 samples.

Results

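The 8 genes followed here are used to identify or isolate dermal papilla cells, and their levels were taken from cashmere goat (Capra hircus) papilla cells: ALPL (gene ID 102189447), NCAM1 (102177818), PROM1 (102173725), PDGFRA (102174007), PDGFRB (102184426), THY1 (102178188), NES (102173142) and CORIN (102186571). They were taken by gene symbol from library tables that list 20326 genes, and each of the 8 symbols matched 1 row. The cells came from secondary hair follicles, which grow cashmere, and from primary hair follicles, which grow guard hair. Each follicle type was sampled from male and from female goats in October, labelled anagen, and in June, labelled early anagen, so that month, hair cycle stage and season cannot be told apart. The 8 groups were secondary October male, secondary October female, secondary June male, secondary June female, primary October male, primary October female, primary June male and primary June female, with 3 RNA-seq libraries of total RNA each and 24 in all. All groups are papilla cells from goat skin with no treatment or allele in the labels, which call the libraries biological replicates without saying whether each came from a separate animal. The labels do not say whether the cells were cultured, and p-values measure only the spread between these libraries. Values are the authors' normalised signal per gene, described under the processing, and differences are of log2(value + 1), tested with limma and called at an adjusted p under 0.05.

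The dermal papilla is a cluster of specialised fibroblasts at the base of the hair follicle that signals to the surrounding epithelium and controls hair growth. In mice and humans, alkaline phosphatase activity is the classical histochemical stain of the papilla, and the surface proteins NCAM1, PROM1 and CORIN have been used to stain or sort papilla cells. PDGFRA, PDGFRB and THY1 are surface proteins of dermal fibroblasts more widely, and NES is a filament protein first known from neural progenitors that also marks stem-like cells of the follicle's mesenchyme. In bulk RNA, fewer cells of a type and less RNA per cell cannot be told apart.

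The libraries held normalised totals of 959766 to 1045876, which are not sequencing depths, and the depth of each library is unknown. Libraries of 1 group correlated at 0.996 to 0.999 on the log2 scale and libraries of different groups at 0.979 to 0.996. The mesenchymal gene VIM had group means of 5995 to 10179. ACTA2, on the dermal sheath and smooth muscle list, had group means of 4674 to 7834. All 8 genes of that list were at 1 or more in every group, and they summed to 10646 to 18920.4. The papilla genes VCAN, RSPO3 and LEF1 were present in every group, with group means of 211 to 501 for VCAN, 142 to 277 for RSPO3 and 8.14 to 13.6 for LEF1. They were picked from a list of 24 papilla genes, of which 21 were tested, and do not stand for all of it. HHIP of that list was at 0 in 12 libraries and never above 0.03, and BMP6 was at 0 in 5. SOX2, also on it, had means under 1 in secondary June cells and in secondary October female cells. Keratinocyte markers summed to 299 to 324 in secondary October female libraries, where 10 of the 12 listed genes were at 1 or more in all 3 libraries, and to 5.24 to 76.8 elsewhere. Immune markers summed to 50.4 to 58.5 in primary June female libraries, where 4 of 8 were at 1 or more, and to 10.8 to 42.4 elsewhere, while PTPRC, which defines blood cells, was at 0 in 22 libraries and never above 0.02. The Schwann cell gene CDH19 was at 0 in all 24 libraries, while S100B of the same list reached 61.8. The pericyte gene RGS5 did not exceed 0.74, while CSPG4 of the same list reached 89.92. Melanocyte markers summed to 1.92 to 4.84, adipocyte markers to 5.59 to 18.1 and endothelial markers to 21.3 to 46.3. The Y-linked gene SRY was at 0 in all 24 libraries and was the 1 gene of 10 on the Y-linked list in these files, so the sex labels were not checked by expression.

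The 8 genes divided by whether their values cleared the filter for testing. THY1, NES, PDGFRA, PDGFRB and NCAM1 were above 1 in all 24 libraries, and ALPL, PROM1 and CORIN were mostly below it. THY1 group means lay between 579.5 and 671, NES between 121 and 315, PDGFRA between 111 and 289, and PDGFRB between 56.3 and 106. Of these 5 genes NCAM1 varied most, with its highest group mean 24.3 times its lowest, against 2.6 times for NES, 2.59 times for PDGFRA, 1.88 times for PDGFRB and 1.16 times for THY1. ALPL passed the filter on low values (1 or more in at least 3 libraries) through primary June female cells alone, so it had to differ from that group. Its differences from that group are given with no test, and it is left out of the counts of called genes in each comparison. PROM1 and CORIN never reached 1 and were not tested.

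**Figure D1:**
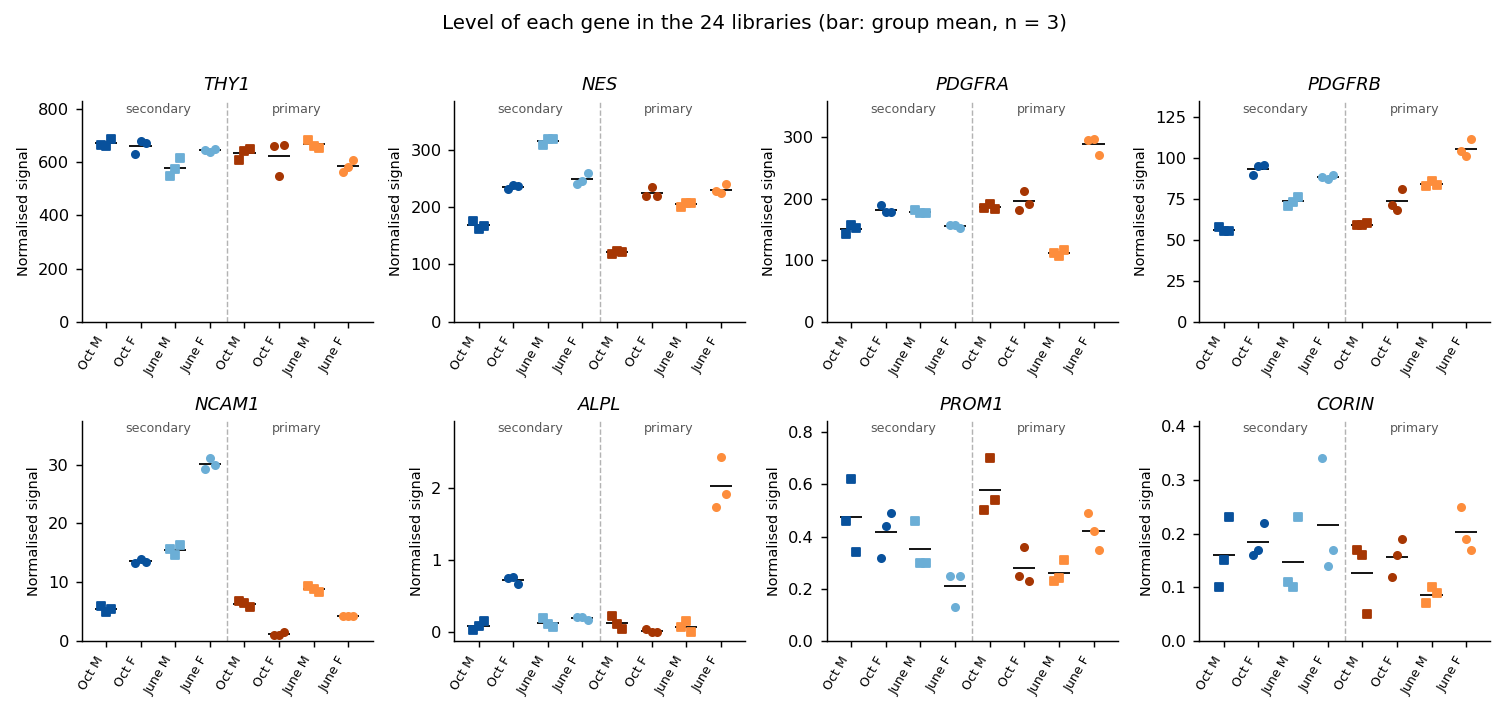
Normalised signal (y axis, linear, a separate scale for each gene) of the 8 genes in the 24 libraries, by group (x axis), with secondary follicle groups left of the dashed line and primary ones right of it. Points are libraries, squares male and circles female, and bars are group means of 3 libraries. NCAM1 peaks at a mean of 30.1 in secondary June female cells, ALPL at 2.03 in primary June female cells, and THY1 stays between 549 and 689 in every library.

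The difference between secondary and primary papilla cells depended on the gene, the month and the sex label. NCAM1 was higher in secondary cells in June in both sexes and in October in females, and NES was higher in secondary cells of males in both months. PDGFRA was lower in secondary than in primary June female cells but higher in secondary than in primary June male cells. Of the 5 genes above 1 in every library, 5 were called between secondary and primary June female cells, 3 higher and 2 lower, where 49.3% of all 13049 tested genes were called (25% higher and 24.3% lower). In June male cells 5 were called as well, 3 higher and 2 lower, against 59.6% of all genes (30.7% higher and 28.9% lower). In October female cells 2 were called, both higher, against 35.5% of all genes (18.3% higher and 17.2% lower). In October male cells 2 were called, 1 higher and 1 lower, against 18.5% (10.9% higher and 7.63% lower). Beside those shares, counts over 5 genes are read as a description of these genes and not as a property of the set. The 5 calls in June female cells became 3 without the third secondary library or without the first or the second primary library, with THY1 and NES no longer called. When every library was scaled to a common total, the June male count was 3, without PDGFRB and THY1, and the October male count was 4, with NCAM1 and PDGFRB added. That scaling also moved the share of higher among all called genes, which was 64.2%, against 51.5% without it, in June male cells and 26.9%, against 58.7%, in October male cells.

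Most of the called differences between October and June were decreases. NCAM1 was lower in October than in June in all 4 kinds of cells, PDGFRB in 3 of the 4, and NES in male cells of both follicle types. Of the 5 genes, 5 were called in secondary male cells, 1 higher and 4 lower in October, where 56.5% of all genes were called (25.3% higher and 31.2% lower). Among secondary female cells 2 were called, 1 higher and 1 lower, against 51.3% of all genes (24.2% higher and 27.1% lower). In primary male cells 4 were called, 1 higher and 3 lower, against 55.5% (26% higher and 29.5% lower), and in primary female cells 3 were called, all lower, against 48.2% (22.7% higher and 25.6% lower). With a common total the share of higher among all called genes was 31.4% in secondary male cells, against 44.8% without that scaling, and 60.9% in primary male cells, against 46.9%.

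Male and female cells differed in most of these genes, and the direction often depended on the follicle type. NCAM1 was lower in male than in female secondary cells and higher in male than in female primary cells, in both months. PDGFRB was lower in male than in female cells in all 4 comparisons. Of the 5 genes, 4 were called in secondary October cells, all lower in males, where 40.4% of all genes were called (19.5% higher and 20.9% lower). Among secondary June cells 5 were called, 2 higher and 3 lower in males, against 39.5% of all genes (20.9% higher and 18.6% lower). In primary October cells 3 were called, 1 higher and 2 lower, against 33.6% (15.8% higher and 17.8% lower), and in primary June cells 5 were called, 2 higher and 3 lower, against 45.4% (23.1% higher and 22.3% lower). With a common total the share of higher among all called genes was 36.3% in secondary October cells, against 48.3% without that scaling, and 67.4% in secondary June cells, against 52.8%. Whether these effects differed between groups was tested directly in 6 differences of comparisons, such as follicle type by month, the secondary minus primary difference in October minus that in June. Of the 5 genes, 4 were called for follicle type by month in males, where 43.9% of all genes were called, and 2 in females, against 40.2%. For follicle type by sex label 4 were called in October, against 26.7% of all genes, and 4 in June, against 41.2%, and for month by sex label 4 in secondary cells, against 37.7%, and 3 in primary cells, against 36.8%. Of all genes called in these 6, the share with a positive value moved by over 10 percentage points with a common total in 5. It was 23.9% with that scaling, against 49.2%, for follicle type by month in males. For follicle type by sex label it was 33.9%, against 51.3%, in October and 67.5%, against 50.6%, in June. For month by sex label it was 28.3%, against 45.8%, in secondary cells and 60.8%, against 48.2%, in primary cells. The 12 comparisons share libraries, each group entering 3 of them, so they are not independent of each other.

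**Figure D2:**
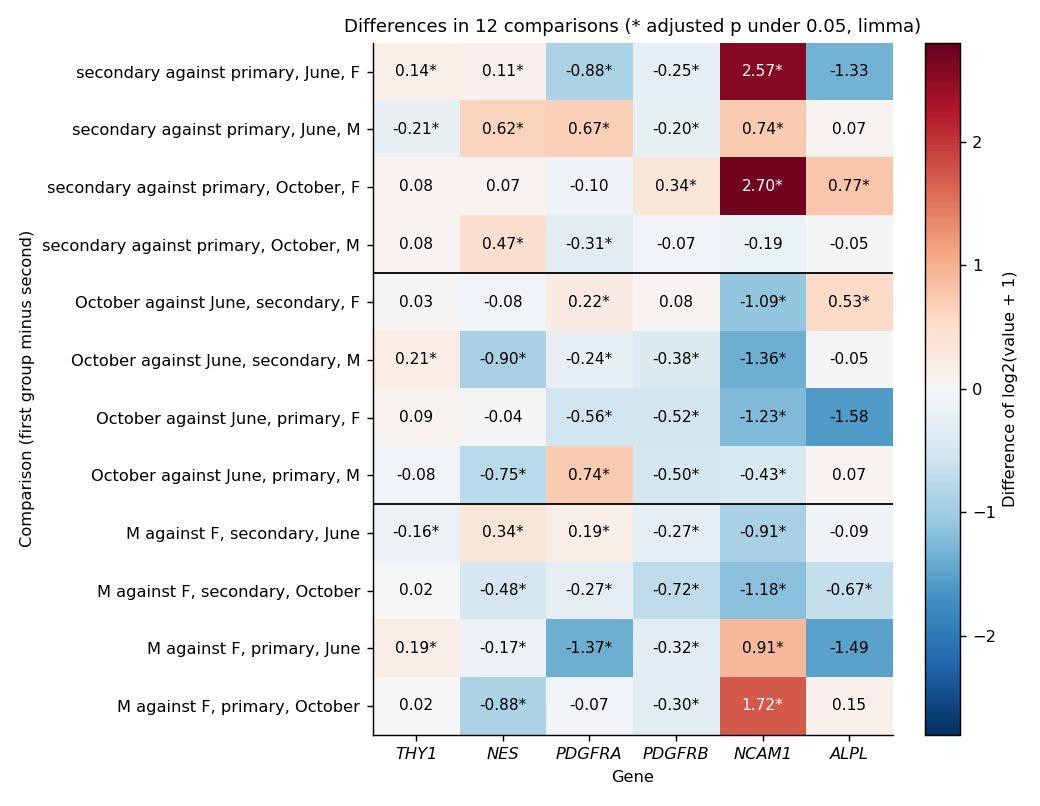
Difference of log2(value + 1) between 2 groups (colour and printed value, first group minus second) for the 6 tested genes (columns) in the 12 comparisons (rows), with an asterisk where the limma adjusted p is under 0.05, left off where ALPL is compared with primary June female cells. The NCAM1 column holds the largest positive values, 2.70 and 2.57, in the secondary against primary female comparisons, and THY1 stays within 0.21 of 0 throughout.

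NCAM1, the neural cell adhesion molecule CD56, a surface glycoprotein that binds itself and other molecules on neighbouring cells, differed most between groups. In June female cells NCAM1 was 29.2, 31.1 and 29.9 in the secondary libraries, against 4.19, 4.3 and 4.26 in the primary ones (log2 difference 2.57, SE 0.07, limma adjusted p = 4.32e-18). In October female cells it was 13.3, 14 and 13.4 in the secondary libraries, against 1.12, 1.11 and 1.49 in the primary ones (log2 difference 2.70, SE 0.07, limma adjusted p = 1.95e-18). Every secondary female library was thus well above every primary female library, with a ratio of means of 10.9 in October and 7.08 in June. In June male cells it was 15.7, 14.7 and 16.4 in the secondary libraries, against 9.42, 8.9 and 8.4 in the primary ones (log2 difference 0.74, SE 0.07, limma adjusted p = 4.89e-09). In October male cells it was 5.93, 5.03 and 5.38 in the secondary libraries, against 6.76, 6.5 and 5.87 in the primary ones (log2 difference -0.19, SE 0.07, limma adjusted p = 0.0565). The secondary minus primary difference in June was smaller in males than in females, by -1.82 in a limma test of that difference, and in October the male groups overlapped. The October male comparison was close to the threshold, and it was called at -0.27 with a common total, and at -0.25 without the first secondary library or without the third primary library of that comparison. It was also called, at -0.19, without the second or the third primary October female library, neither of which is in the comparison.

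Across months, NCAM1 fell in October in each kind of cell, and no October group overlapped its June group. The log2 difference was -1.36 in secondary male cells (adjusted p = 1.37e-13), -1.23 in primary female cells (adjusted p = 1.62e-12), -1.09 in secondary female cells (adjusted p = 1.07e-11) and -0.43 in primary male cells (adjusted p = 2.04e-05), each with an SE of 0.07. Between male and female cells the sign depended on follicle type. In secondary cells NCAM1 was lower in males, with a log2 difference of -1.18 in October (adjusted p = 3.87e-12) and -0.91 in June (adjusted p = 5.78e-10). In primary cells it was higher in males, with 1.72 in October (adjusted p = 5.48e-15) and 0.91 in June (adjusted p = 2.37e-10). From highest to lowest, the group means were 30.1 in secondary June female, 15.6 in secondary June male, 13.6 in secondary October female, 8.91 in primary June male, 6.38 in primary October male, 5.45 in secondary October male, 4.25 in primary June female and 1.24 in primary October female cells. Of neighbours in that order, only primary October male and secondary October male cells had overlapping libraries. The Schwann cell and neural marker list, of which S100B was the 1 gene at 1 or more in all 3 libraries of any group, summed to 56.4 to 62.8 in secondary June libraries and 26.4 to 47.4 in the others, with CDH19 at 0 throughout. The part of such cells in the NCAM1 difference was not tested.

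The partners of NCAM1 and the enzymes that modify it were followed as a list of 15 genes, of which 10 were tested. In October against June the counts were 3 higher and 7 lower, with a median log2 difference of -0.96, in secondary male cells (100% of the list against 56.5% of all genes called), and 1 higher and 8 lower, with a median log2 difference of -0.49, in primary female cells (90% of the list against 48.2% of all genes). The median of all genes was -0.01 and 0.00 in the same comparisons. Primary male cells had 2 higher and 8 lower, with a median log2 difference of -0.25, which became 2 higher and 5 lower with a median of -0.17 under a common total, and secondary female cells 3 higher and 6 lower, with a median log2 difference of -0.19. L1CAM, an adhesion molecule of axons that binds NCAM1, fell in October in all 4, with log2 differences of -2.84 in primary male, -2.10 in secondary male, -1.56 in secondary female and -1.16 in primary female cells. CDH2, which encodes N-cadherin, another cell adhesion protein, rose in October in all 4, with 1.41 in secondary male cells as the largest value. Between follicle types, 6 higher and 4 lower were called in June female cells, 6 higher and 3 lower in June male cells, 5 higher and 2 lower in October female cells and 4 higher and 1 lower in October male cells, the last becoming 3 higher and 2 lower with a common total. The shares of all genes called were 49.3%, 59.6%, 35.5% and 18.5% in the same order. ST8SIA2, a sialyltransferase that adds polysialic acid to NCAM1, was 10.3, 10.6 and 9.23 in secondary October female libraries, against 1.8, 1.92 and 2.21 in primary October female libraries (log2 difference 1.89, SE 0.066, limma adjusted p = 3.6e-16). In October male cells ST8SIA2 was lower in secondary than in primary cells, with a log2 difference of -0.36. ST8SIA4, the second polysialyltransferase, was also higher in secondary October female cells, by 0.61. Between male and female cells the counts were 5 higher and 4 lower in secondary October, 5 higher and 2 lower in secondary June, 5 higher and 3 lower in primary October and 4 higher and 4 lower in primary June cells, the last becoming 3 higher and 5 lower with a common total. Over the 12 comparisons 50% to 100% of the tested genes of this list were called, against 18.5% to 59.6% of all genes. The share was above that of all genes in 12 of them. NCAM2, CHL1, NRCAM, GFRA1 and GFRA2 were too low to test.

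Among 9369 genes with a mean of at least 5, those whose log2 levels most resembled NCAM1 over the 24 libraries were FEZ1 (Pearson r = 0.938), GREM1 (r = 0.917) and GRASP (r = 0.911). The libraries of a group share their conditions, so these values describe likeness between 8 groups more than between 24 independent points. FEZ1 encodes a protein of axon growth and transport, and it averaged 27.3 ± 0.447 in secondary June female cells against 3.2 ± 0.0721 in primary June female cells (SD, n = 3 each). GREM1, a secreted BMP inhibitor, averaged 889.8 ± 4.72 in secondary June female cells against 348 ± 3.85 in primary June female cells (SD, n = 3 each). Both had their lowest group mean in primary October female cells, as NCAM1 did, and their highest in secondary June male cells, where NCAM1 was second. FEZ1 and GREM1 were chosen by their likeness to NCAM1, so shared high and low groups are not separate evidence.

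**Figure D3:**
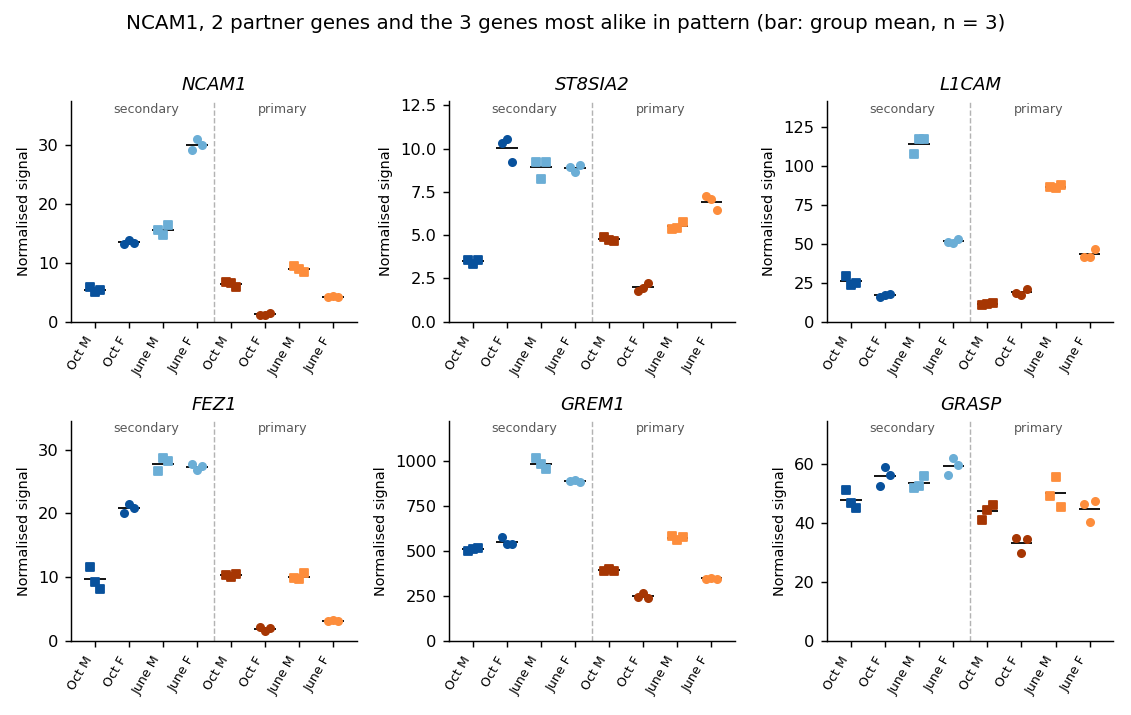
Normalised signal (y axis, linear, separate scales) by group (x axis) of NCAM1, the polysialyltransferase ST8SIA2, the adhesion molecule L1CAM and the 3 genes closest to NCAM1 in pattern. Points are libraries, squares male and circles female, and bars are means of 3. FEZ1 and GREM1 share the low primary October female groups, at 1.94 and 252, while L1CAM is highest in June male cells.

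THY1, the glycosylphosphatidylinositol-anchored surface protein CD90 of fibroblasts and mesenchymal stem cells, was nearly level across groups. The group means were 671 ± 15.7 in secondary October male, 668 ± 15.9 in primary June male, 661 ± 25 in secondary October female, 646 ± 6.16 in secondary June female, 633 ± 20.5 in primary October male, 625 ± 66.2 in primary October female, 585 ± 24.4 in primary June female and 579.5 ± 32.9 in secondary June male cells (SD, n = 3 each). All neighbours in this order overlapped, and the primary October female group had the widest spread, with one library at 549 and the others at 662 and 665. In June male cells THY1 was 550.0, 574 and 615 in the secondary libraries, against 686, 662 and 655 in the primary ones (log2 difference -0.21, SE 0.057, limma adjusted p = 0.00387). In secondary male cells it was 663, 660.2 and 689 in October, against 550.0, 574 and 615 in June (log2 difference 0.21, SE 0.057, limma adjusted p = 0.00325), a difference of 0.12 with a common total. In both comparisons the secondary June male libraries were the lower ones and the groups did not overlap. In primary June cells it was 686, 662 and 655 in males, against 562, 582 and 610.3 in females (log2 difference 0.19, SE 0.057, limma adjusted p = 0.00902). The remaining calls were 0.14 for secondary against primary June female cells (adjusted p = 0.0411) and -0.16 for male against female secondary June cells (adjusted p = 0.0325). The first of these was lost without any 1 of 5 of the 6 libraries compared, the exception being the third primary library, and the other without any 1 of 5 of its 6, the exception being the third male library. Scaling to a common total ended the calls for June male cells, at -0.11, and for male against female secondary June cells, at -0.10. Without the second primary October female library, October against June in primary female cells, at 0.09 and not called, was called at 0.18. The genes nearest to THY1 in pattern were MAPK3 (r = 0.809), ACP6 (r = 0.799) and GMDS (r = 0.797), all below the r of the genes nearest to the other 5 tested genes.

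Both THY1 and alkaline phosphatase are held on the cell surface by a glycosylphosphatidylinositol anchor, and the 27 genes of anchor synthesis and transfer were all tested. For secondary against primary cells, 6 higher and 3 lower passed the test in June females (33.3% of the list against 49.3% of all genes called), 10 higher and 6 lower in June males (59.3% of the list against 59.6% of all genes) and 8 higher and 2 lower in October females (37% of the list against 35.5% of all genes). In October males 0 of the 27 were called by limma, with 3 at an unadjusted p under 0.05, and with a common total 0 were higher and 4 lower. PIGA, the catalytic subunit of the first step, was higher in October than in June in secondary female cells, by 0.81 on the log2 scale, and in primary female cells, by 0.47. PGAP2, which remodels the anchor's lipid in the Golgi apparatus, was lower in October in all 4 kinds of cells, with log2 differences of -0.42 in primary male, -0.42 in primary female, -0.34 in secondary female and -0.29 in secondary male cells. In the October against June comparisons the counts were 6 higher and 1 lower in secondary female and 7 higher and 7 lower in primary female cells. They were 5 higher and 6 lower in secondary male cells, which became 3 higher and 7 lower with a common total, and 6 higher and 3 lower in primary male cells, which became 11 higher and 2 lower. Between males and females they were 1 higher and 4 lower in secondary October cells, which became 0 higher and 5 lower with a common total, and 6 higher and 3 lower in secondary June cells. They were 3 higher and 1 lower in primary October, which became 5 higher and 0 lower with a common total, and 2 higher and 4 lower in primary June cells. Over the 12 comparisons 0% to 59.3% of the tested genes of this list were called, against 18.5% to 59.6% of all genes. The share was above that of all genes in 2 of them.

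PDGFRA and PDGFRB, the receptor tyrosine kinases for platelet-derived growth factors, differed between groups in different ways. PDGFRA was 157, 158 and 153 in secondary June female libraries, against 296, 298 and 272 in primary June female libraries (log2 difference -0.88, SE 0.052, limma adjusted p = 2.69e-12). In June male cells it was 181, 176 and 176 in the secondary libraries, against 111, 107 and 116 in the primary ones (log2 difference 0.67, SE 0.052, limma adjusted p = 1.82e-10). The sign was thus opposite in males and females, and the highest and the lowest PDGFRA libraries of the series were both in primary June cells. In October female cells it was 191, 178 and 178 in the secondary libraries, against 182, 213 and 191 in the primary ones (log2 difference -0.10, SE 0.052, limma adjusted p = 0.153). In October male cells it was 142, 157 and 153 in the secondary libraries, against 185, 191 and 183 in the primary ones (log2 difference -0.31, SE 0.052, limma adjusted p = 0.000179). The October groups overlapped in females and not in males, and without the first primary October female library the female difference was called, at -0.15.

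The largest month and sex differences of PDGFRA also involved primary June cells. In primary cells PDGFRA was higher in October than in June in males, with a log2 difference of 0.74 (adjusted p = 4.69e-11), and lower in October in females, with -0.56 (adjusted p = 8.32e-09). In secondary cells the differences were smaller and of the opposite signs, -0.24 in males (adjusted p = 0.000489) and 0.22 in females (adjusted p = 0.00113). The male minus female log2 difference was -1.37 in primary June cells (adjusted p = 9.76e-16), against -0.27 in secondary October and 0.19 in secondary June cells, both called. From highest to lowest the group means were 289 in primary June female, 196 in primary October female, 186 in primary October male, 182 in secondary October female, 178 in secondary June male, 156 in secondary June female, 151 in secondary October male and 111 in primary June male cells. The 4 groups between 178 and 196 overlapped with their neighbours, as did those at 156 and 151. Dermal sheath and smooth muscle markers, all 8 of which were at 1 or more in every group, summed to 18334 to 18920.4 in primary June male libraries and to 10646 to 15262 elsewhere, and their part in the low PDGFRA of that group was not tested. The immune marker sum was highest in primary June female libraries, given above, and its part in the high PDGFRA there was not tested.

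PDGFRB was lower in October than in June in 3 of the 4 kinds of cells and lower in males than in females in all 4 comparisons. In secondary October cells it was 57.9, 55.2 and 55.7 in males, against 89.4, 94.9 and 95.8 in females (log2 difference -0.72, SE 0.052, limma adjusted p = 9.42e-11). In primary June cells it was 83, 86.1 and 83.6 in males, against 104, 101 and 112 in females (log2 difference -0.32, SE 0.052, limma adjusted p = 2.03e-05). The sexes did not overlap in either, and the differences in primary October and secondary June cells were -0.30 (adjusted p = 6.62e-05) and -0.27 (adjusted p = 0.000259). In primary October cells it was 58.8, 58.8 and 60.1 in males, against 71, 68.5 and 80.9 in females. In secondary June cells it was 70.8, 73.3 and 76.3 in males, against 88.5, 87.4 and 89.6 in females. The October decrease was -0.52 in primary female (adjusted p = 1.98e-08), -0.50 in primary male (adjusted p = 2.61e-08) and -0.38 in secondary male cells (adjusted p = 1.51e-06), and secondary female cells differed by 0.08 (adjusted p = 0.232). Between follicle types the called differences were 0.34 in October female, -0.25 in June female and -0.20 in June male cells, the last at -0.11 and not called with a common total. Pericyte markers, which PDGFRB also accompanies in vessels, summed to 59.4 to 75.2 in primary October female libraries and 91.4 to 144 elsewhere. Of that list RGS5 was at most 0.74 and KCNJ8 at 0 in 18 libraries, while CSPG4 reached 89.92, NDUFA4L2 44.65 and NOTCH3 36.13. The part of pericyte markers in the PDGFRB differences was not tested.

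The ratio of PDGFRA to PDGFRB was read only for how it changed between groups, since the values may not be comparable between genes. It averaged 2.68 ± 0.199 in secondary October male, 1.96 ± 0.153 in secondary October female, 2.43 ± 0.123 in secondary June male and 1.76 ± 0.0511 in secondary June female cells (SD, n = 3 each). In primary cells it averaged 3.15 ± 0.103 in October male, 2.68 ± 0.387 in October female, 1.32 ± 0.0753 in June male and 2.74 ± 0.272 in June female cells (SD, n = 3 each). The lowest ratio was in primary June male cells and the highest in primary October male cells. In secondary cells the ratio was higher in males than in females in both months, with no overlap between the sexes. Over the 24 libraries the log2 levels of the receptors correlated at 0.301, a description over libraries that share groups.

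**Figure D4:**
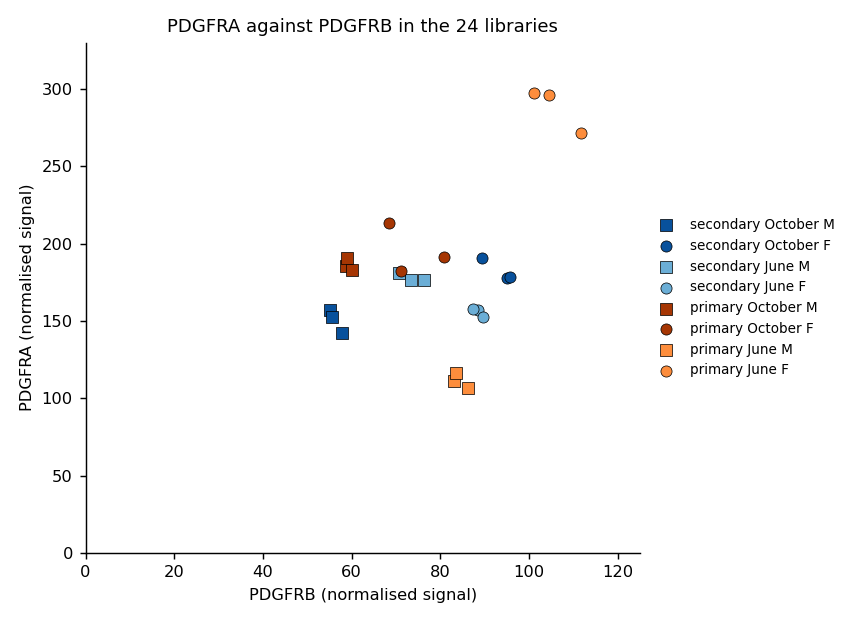
PDGFRA (y axis) against PDGFRB (x axis), both as normalised signal on linear axes, in the 24 libraries, coloured by follicle type and month, with squares for male and circles for female. The primary June female libraries sit apart at 272 to 298 PDGFRA and 101 to 112 PDGFRB, and the primary June male libraries sit lowest in PDGFRA, at 107 to 116.

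The ligands and signalling partners of these receptors were followed as a list of 13 genes, of which 12 were tested. Between secondary and primary cells, 1 higher and 7 lower were called in June female cells and 2 higher and 8 lower in June male cells, with median log2 differences of -0.17 and -0.32, where the medians of all genes were 0.00 and 0.01. In October the counts were 3 higher and 2 lower in female and 3 higher and 2 lower in male cells. Of all genes, 49.3% were called in June female, 59.6% in June male, 35.5% in October female and 18.5% in October male cells. PDGFD, a ligand of PDGFRB, was 20.4, 20.2 and 18.5 in secondary June female libraries, against 47.2, 50.6 and 43.7 in primary June female libraries (log2 difference -1.22, SE 0.1, limma adjusted p = 9.38e-10). The primary June female group had the highest mean of both PDGFRB and PDGFD. PDGFD fell in October in all 4 kinds of cells, with log2 differences of -2.07, -1.50, -1.62 and -0.29 in primary female, primary male, secondary female and secondary male cells. PDGFC, a ligand of PDGFRA, was 86.9, 87.7 and 83.7 in secondary October female libraries, against 166, 178 and 163 in primary October female libraries (log2 difference -0.96, SE 0.039, limma adjusted p = 3.38e-15). PDGFC was lower in males than in females in primary October cells, with a log2 difference of -1.39, in secondary June cells, with -0.85, and in primary June cells, with -0.71. PDGFA, the ligand of PDGFRA that hair follicle epithelium makes in mice, had group means of 22.5 to 34.4, and PDGFB did not exceed 0.78 in any library. In the October against June comparisons the counts were 5 higher and 5 lower in secondary male, 4 higher and 4 lower in secondary female, 2 higher and 8 lower in primary male and 3 higher and 6 lower in primary female cells. Male against female counts were 1 higher and 3 lower in secondary June cells, 2 higher and 5 lower in secondary October cells, 3 higher and 4 lower in primary June cells, and 2 higher and 7 lower in primary October cells. With median-of-ratios factors the first became 1 higher and 5 lower, and with a common total the last 3 became 1 higher and 6 lower, 2 higher and 5 lower, and 3 higher and 4 lower. Over the 12 comparisons 33.3% to 83.3% of the tested genes of this list were called, against 18.5% to 59.6% of all genes. The share was above that of all genes in 11 of them.

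The genes closest to PDGFRA in pattern were TBC1D2B (r = 0.938), CLMP (r = 0.876) and DPP4 (r = 0.874), and those closest to PDGFRB were LDLRAD3 (r = 0.946), S1PR3 (r = 0.924) and UNC5B (r = 0.918). DPP4, the surface peptidase CD26 that marks a class of dermal fibroblasts in mice, averaged 6.41 ± 0.716 in primary June male cells against 27.1 ± 2.53 in primary June female cells (SD, n = 3 each), the lowest and the highest group means of both DPP4 and PDGFRA. S1PR3, a receptor for sphingosine-1-phosphate, averaged 7.79 ± 1.13 in secondary October male cells against 24.7 ± 1.17 in secondary October female cells (SD, n = 3 each), lower in males as PDGFRB was. DPP4 and S1PR3 were picked for their likeness to PDGFRA and PDGFRB, so these shared patterns are not separate evidence.

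NES, which encodes the intermediate filament protein nestin, separated male cells by month and by follicle type. In secondary male cells it was 175, 162 and 167 in October, against 309, 318 and 319 in June (log2 difference -0.90, SE 0.041, limma adjusted p = 1.52e-14). In primary male cells it was 118, 124 and 122 in October, against 199, 207 and 208 in June (log2 difference -0.75, SE 0.041, limma adjusted p = 4.61e-13). No October male library reached a June male library of the same follicle type. In secondary female cells it was 232, 238 and 236 in October, against 241, 245 and 259.9 in June (log2 difference -0.08, SE 0.041, limma adjusted p = 0.12). In primary female cells it was 220.0, 235 and 219 in October, against 227, 224 and 239.7 in June (log2 difference -0.04, SE 0.041, limma adjusted p = 0.485). Neither female difference passed the threshold, although the October and June libraries did not overlap in secondary female cells as they did in primary ones, and the 4 female groups all lay between 219 and 259.9. Between follicle types NES was higher in secondary than in primary male cells, by a log2 difference of 0.62 in June (adjusted p = 1.03e-11) and 0.47 in October (adjusted p = 1.4e-08). In June female cells the difference was 0.11 (adjusted p = 0.0328), which was not called with a common total, with the compared groups alone, without the third secondary library, or without the first or the second primary library. In October female cells it was 0.07 (adjusted p = 0.216), with overlapping groups. NES was lower in males than in females in both October comparisons, with log2 differences of -0.88 in primary and -0.48 in secondary cells, and in primary June cells, with -0.17, and it was higher in males in secondary June cells, with 0.34. From highest to lowest the group means were 315 in secondary June male, 248 in secondary June female, 235 in secondary October female, 230.3 in primary June female, 225 in primary October female, 205 in primary June male, 168 in secondary October male and 121 in primary October male cells, and of neighbours the groups at 235, 230.3 and 225 overlapped.

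Nestin assembles into filaments with other intermediate filament proteins, and of 9 such genes 5 were tested: VIM, DES, SYNM, INA and NEFH. DES, which encodes desmin of muscle filaments, was 84.4, 68.8 and 69 in secondary October male libraries, against 4.66, 5.18 and 5.24 in secondary June male libraries (log2 difference 3.63, SE 0.075, limma adjusted p = 2.58e-20), a difference opposite in sign to that of NES in the same cells. SYNM, which encodes synemin, was higher in October in secondary male cells as well, with a log2 difference of 0.61, and lower in October in primary male cells, with -0.78. VIM, the main filament of mesenchymal cells, was lower in October in all 4 kinds of cells, with log2 differences of -0.76, -0.47, -0.17 and -0.13 in secondary female, primary female, primary male and secondary male cells. For secondary against primary cells, 4 higher and 0 lower passed the test in October males, 2 higher and 3 lower in June males, 1 higher and 3 lower in October females and 1 higher and 3 lower in June females. All genes were called at 18.5%, 59.6%, 35.5% and 49.3% in the same order. In October against June the counts were 2 higher and 1 lower in secondary male, 1 higher and 3 lower in secondary female, 1 higher and 4 lower in primary male and 1 higher and 4 lower in primary female cells. Between males and females they were 5 higher and 0 lower in secondary October, 2 higher and 2 lower in secondary June, 2 higher and 1 lower in primary October and 3 higher and 2 lower in primary June cells. Over the 12 comparisons 60% to 100% of the tested genes of this list were called, against 18.5% to 59.6% of all genes. The share was above that of all genes in 12 of them. The neural filament genes NEFL and NEFM and the glial gene GFAP did not reach the filter, and CDH19 of Schwann cells was at 0, as given above. The genes closest to NES in pattern were CTSH (r = 0.939), FNDC5 (r = 0.933) and TMEM51 (r = 0.933), all 3 highest in secondary June male and lowest in primary October male cells. NES had the same highest and lowest groups, but likeness to NES was how these genes were chosen. CTSH, the lysosomal protease cathepsin H, averaged 69.6 ± 4.04 in primary October male cells against 129 ± 0.579 in primary June male cells (SD, n = 3 each).

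ALPL, the tissue-nonspecific alkaline phosphatase that gives the papilla its histochemical stain, was low in every group and above 1 in primary June female cells alone. ALPL was 0.21, 0.22 and 0.17 in secondary June female libraries, against 1.74, 2.44 and 1.92 in primary June female libraries, a log2 difference of -1.33. In October female cells it was 0.76, 0.77 and 0.67 in the secondary libraries, while 2 of the 3 primary libraries were listed at 0 and the other at 0.04 (log2 difference 0.77, SE 0.09, limma adjusted p = 3.27e-07). The October female libraries of the 2 follicle types did not overlap, with all values under 1. The sign of the June female difference was fixed by the filter, so it is not set against that of October. In male cells ALPL stayed at or below 0.23 in all 12 libraries. It was 0.03, 0.09 and 0.16 in secondary October male, 0.2, 0.11 and 0.08 in secondary June male, 0.23, 0.12 and 0.04 in primary October male and 0.07, 0.16 and 0 in primary June male libraries. These male groups overlapped each other, and none of the 4 comparisons among them was called. On the log2(value + 1) scale the differences of such low values are understated, and no fold is given against groups with a library at 0. Also set against primary June female cells, the log2 differences were -1.58 for October against June in primary female cells and -1.49 for male against female in primary June cells. Of comparisons without that group, 2 more were called, at 0.53 for October against June in secondary female cells and -0.67 for male against female in secondary October cells. In primary October cells the male against female value was 0.15, which was called, at 0.95, when 0.1 was added before the logarithm in place of 1.

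Primary June female and secondary October female cells had ALPL above 0.5. The former had the highest immune marker sums and the latter the highest keratinocyte marker sums. The next highest immune sums, 35.8 to 42.4 in secondary June male libraries, went with a mean ALPL of 0.13. The next highest keratinocyte sums, 69.7 to 76.8 in primary October male libraries, also went with a mean ALPL of 0.13. The immune list was highest in primary June female libraries, and PTPRC was near 0 there. LAPTM5, a lysosomal membrane protein of blood cells, was 0.08, 0.23 and 0.23 in primary June male libraries, against 31.3, 26.3 and 32.9 in primary June female libraries. LAPTM5 was also 9.23, 7.55 and 7.82 in primary October female libraries, the group with the least ALPL. The keratinocyte list was highest in secondary October female libraries, where the basal keratin gene KRT5 was 186, 201 and 203, against 0.68, 0.5 and 0.47 in secondary June female libraries. Whether immune cells or keratinocytes were present, or had a part in the ALPL values, was not tested. The genes closest to ALPL in pattern were CCNL1 (r = 0.935), NFKBIZ (r = 0.913) and NFKBIA (r = 0.909). NFKBIZ and NFKBIA encode regulators of the transcription factor NF-kB, and NFKBIA averaged 13.1 ± 0.608 in primary June male cells against 105 ± 3.08 in primary June female cells (SD, n = 3 each). These 3 genes were chosen by their likeness to ALPL, and the highest group of each was primary June female cells. Over the 24 libraries ALPL correlated with PDGFRA at 0.722 and with PDGFRB at 0.682, and the primary June female group was the highest for all 3. ALPL passed the filter through that group alone, so these correlations are not separate evidence of a shared pattern.

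**Figure D5:**
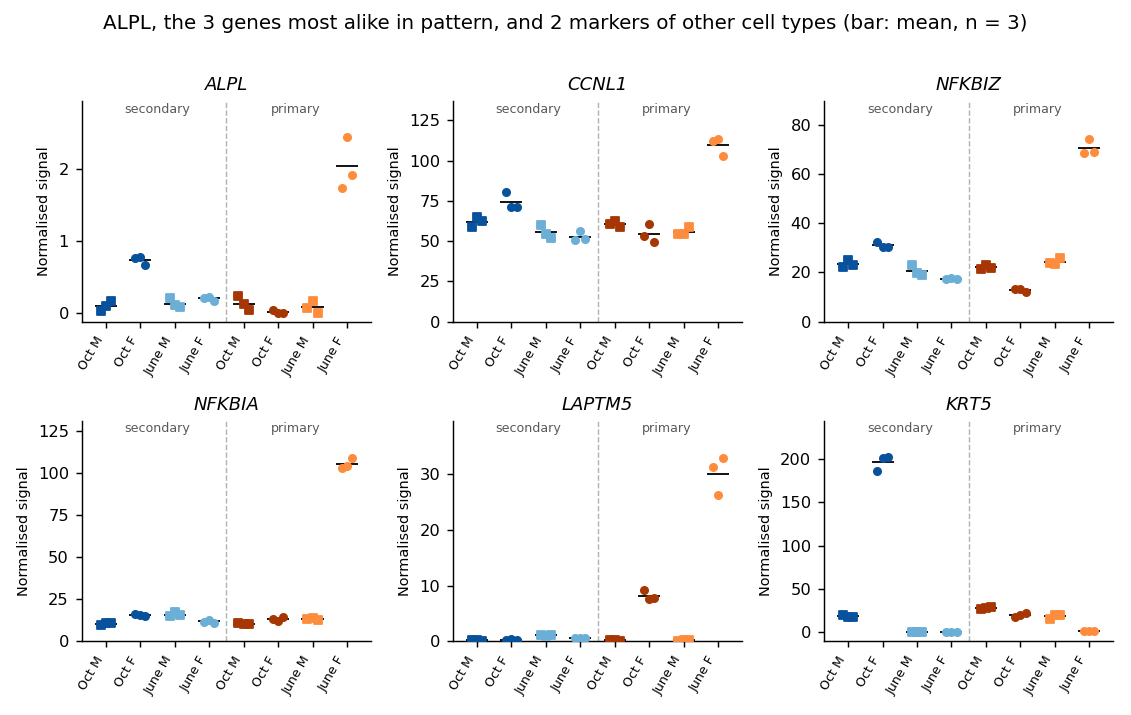
Normalised signal (y axis, linear, separate scales) by group (x axis) of ALPL, the 3 genes closest to it in pattern, the blood cell gene LAPTM5 and the basal keratin gene KRT5. Points are libraries, squares male and circles female, and bars are means of 3. ALPL, CCNL1, NFKBIZ, NFKBIA and LAPTM5 share their peak in primary June female cells, and KRT5 peaks at 197 in secondary October female cells, which hold the second ALPL level, 0.733.

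Alkaline phosphatase frees phosphate from pyrophosphate, and 9 of the 12 listed genes of phosphate and pyrophosphate handling were tested. In primary June cells all 9 differed between males and females, 3 higher and 6 lower in males, against 45.4% of all genes called, and the counts were 4 higher and 5 lower in secondary October, 5 higher and 2 lower in secondary June and 3 higher and 3 lower in primary October cells. In October against June, 1 higher and 7 lower were called in primary female cells, 1 higher and 6 lower in secondary female, 2 higher and 6 lower in secondary male and 3 higher and 4 lower in primary male cells. SPP1, which encodes the secreted phosphoprotein osteopontin, was 559.7, 565 and 579 in secondary June male libraries, against 138, 152 and 160.4 in primary June male libraries (log2 difference 1.91, SE 0.047, limma adjusted p = 2.2e-19). SPP1 was also higher in secondary cells in the other 3 comparisons, by 0.97 in October male, 0.46 in June female and 0.27 in October female cells. MGP, the matrix protein that inhibits calcification, was 2.18, 1.8 and 1.24 in secondary October male libraries, against 39.4, 30.8 and 29.2 in primary October male libraries (log2 difference -3.64, SE 0.18, limma adjusted p = 1.01e-12). In June male cells MGP had the opposite sign, at 1.59. ANKH, a membrane protein that exports pyrophosphate and ATP, was higher in male than in female primary June cells, by 1.08, and ENPP1, the enzyme that makes pyrophosphate outside the cell, was lower in secondary June cells than in primary ones, with log2 differences of -0.83 in males and -0.44 in females. PHOSPHO1, a phosphatase of mineralising cells, did not exceed 0.78. Between follicle types the list's counts were 3 higher and 5 lower in June female, 3 higher and 4 lower in June male, 5 higher and 3 lower in October female and 5 higher and 1 lower in October male cells, and with a common total the June male count became 5 higher and 3 lower and the October male count 1 higher and 1 lower. For these follicle type comparisons the shares of all genes called were 49.3%, 59.6%, 35.5% and 18.5%, in the order of the list's counts. Over the 12 comparisons 66.7% to 100% of the tested genes of this list were called, against 18.5% to 59.6% of all genes. The share was above that of all genes in 12 of them.

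PROM1, which encodes the membrane protein CD133, was low in every library, from 0.13 to 0.70. From highest to lowest its group means were 0.58 in primary October male, 0.473 in secondary October male, 0.42 in primary June female, 0.417 in secondary October female, 0.353 in secondary June male, 0.28 in primary October female, 0.26 in primary June male and 0.21 in secondary June female cells, and all neighbours overlapped. When no filter was applied and 18143 genes were fitted, PROM1 was called in 4 of the 12 comparisons. These were -0.23 for secondary against primary June female cells, 0.23 for October against June in secondary female cells, 0.32 for October against June in primary male cells and 0.30 for male against female primary October cells. All these values lie under 1, where the log2(value + 1) scale compresses differences. CORIN, the serine protease that activates atrial natriuretic peptide and marks the mouse papilla, lay between 0.05 and 0.34 in single libraries. Its highest group mean was 0.217, in secondary June female cells, and its lowest 0.0867, in primary June male cells, with overlap between all neighbours. Without the filter CORIN was called in 0 of the 12 comparisons by limma, with 1 at an unadjusted p under 0.05.

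The natriuretic peptide genes that CORIN acts on were also low: NPPA was at 0 in 19 of the 24 libraries, and NPPB group means did not exceed 0.807. NPR2, the receptor for C-type natriuretic peptide, had group means of 30.9 to 47.9 and was lower in October in all 4 kinds of cells, with log2 differences of -0.58 in primary male, -0.37 in secondary male, -0.35 in primary female and -0.28 in secondary female cells. PCSK6, the protease that activates CORIN, was higher in secondary than in primary June cells, by 3.05 in males and 1.31 in females, and in October females, by 0.63. PCSK6 was 25.7, 26.7 and 27.9 in secondary June male libraries, against 2.77, 2.45 and 1.87 in primary June male libraries. ASIP, the agouti signalling protein that CORIN opposes in the coat colour of mice, had group means of 629 to 823, with 753 ± 56.3 in secondary June female cells against 629 ± 12.9 in primary June female cells (SD, n = 3 each). Of the 9 genes on this list 6 were tested, and the counts called between follicle types were 3 higher and 1 lower in June female, 2 higher and 2 lower in June male, 2 higher and 2 lower in October female and 1 higher and 0 lower in October male cells. Under a common total June male cells had 2 higher and 1 lower, and October male cells 0 higher and 0 lower. In October against June they were 0 higher and 1 lower in secondary female, 0 higher and 3 lower in secondary male, 2 higher and 1 lower in primary female and 1 higher and 2 lower in primary male cells, the last at 2 higher and 2 lower under a common total. Between males and females they were 1 higher and 2 lower in secondary October, 3 higher and 0 lower in secondary June, 1 higher and 1 lower in primary October and 2 higher and 1 lower in primary June cells. Between follicle types 49.3% of all genes were called in June female, 59.6% in June male, 35.5% in October female and 18.5% in October male cells. Over the 12 comparisons 16.7% to 66.7% of the tested genes of this list were called, against 18.5% to 59.6% of all genes. The share was above that of all genes in 7 of them.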

How the data were processed

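RNA-seq of total RNA from goat papilla cells gave 24 libraries. Each deposited table holds 1 normalised signal value per gene, with 2 decimals; the values are not whole and library totals differ, from 959766 to 1045876, so they are neither counts nor plain TPM; for their scaling the method is not given in the sources used here. In the submitters' processing notes, kallisto 0.46.1 and sleuth 0.30.0 are named with no role; genome build, transcript set, filters: not given in the sources used here. Whether values are per transcript length is not stated, so levels were compared between groups and, apart from the filter at 1, not between genes. Marker sums add values over genes, so genes with high values weigh most, and each sum was compared between groups only. The design named a count model for the event of raw counts; as the unit is another, limma took its place. Values were analysed as log2(value + 1) with limma 3.58.1 and statmod 1.5.0 in R 4.3.3 (trend and robust variance, all 24 libraries in 1 fit of 8 groups), after keeping genes at 1 or more in at least 3 libraries, which left 13049 of 20326. Benjamini-Hochberg adjustment ran over all tested genes in each of 12 comparisons and 6 differences between them, at 0.05. The fit was tested on simulated data. Alternatives were a pseudocount of 0.1, no filter, a filter on 6 libraries, median-of-ratios factors, a common total, the compared groups alone, a replicate block, a spread not estimated robustly and each library left out. Gene names came from the files, and 20294 of 20326 gene IDs were found in RefSeq's goat annotation, assembly ARS1.2. The members and gene lists were chosen with earlier results of these data known. All members are named; other named genes were the 3 most alike to each tested member by Pearson r among genes with a mean of at least 5, up to 4 genes of a list with the smallest adjusted p in a comparison, and defining markers; ST8SIA4, LEF1 and genes given only as low were named after their values were seen. Nothing in the labels ties library numbers to animals, so no pairing was used. Of 84 same-numbered pairs, 25 deviated together at a correlation over 0.1. The median correlation was 0.0335 for same-numbered and -0.0167 for differently numbered libraries, which does not settle whether the numbers are paired. Value columns without a sample numbered 0.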

Additional observations from a re-analysis of the deposited data

Results flagged for a closer look

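The effect of follicle type, month or sex label differed between groups for 23 combinations of gene and contrast, each by a limma test of the difference itself, adjusted over all 13049 genes. Unlike the counts by contrast given above, the 23 include ALPL, in contrasts without primary June female cells. The 23 are therefore not a share to set beside that of all genes. In the same 6 contrasts 26.7% to 43.9% of all genes were called, so such differences were common in this series. NCAM1 gave the largest values. Its secondary minus primary difference was lower in males than in females, with a difference of -2.90 on the log2 scale in October and -1.82 in June, and lower in October than in June in males, with -0.94. Its October minus June difference was -0.27 in males relative to females in secondary cells and 0.81 in primary cells. The -0.27 was not called with median-of-ratios factors or without any 1 of 8 libraries, and the 0.81 was 1.23 with a pseudocount of 0.1. These values state how far the effects differ, and their cause was not tested.

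For PDGFRA the secondary minus primary difference in October minus that in June was -0.98 in males and 0.78 in females. Males minus females it was -0.21 in October, not called with no filter, with the compared groups alone or without any 1 of 12 libraries, and 1.56 in June. The October minus June difference of PDGFRA in males minus that in females was -0.46 in secondary and 1.30 in primary cells. For PDGFRB the secondary minus primary difference changed by 0.60 in October relative to June in females and by -0.42 in males relative to females in October, and the October minus June difference changed by -0.45 in males relative to females in secondary cells.

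For NES the secondary minus primary difference in males minus that in females was 0.40 in October and 0.51 in June, and its October minus June change in males was -0.15, not called with median-of-ratios factors or without any 1 of 7 libraries, and -0.33 with a common total. The October minus June difference of NES in males minus that in females was -0.83 in secondary and -0.71 in primary cells. For THY1 the secondary minus primary difference was 0.29 higher in October than in June in males, but 0.11 and not called with a common total (adjusted p = 0.212, limma), and in June it was -0.35 in males relative to females. For ALPL the secondary minus primary difference in males relative to females in October was -0.82, and the October minus June difference in males relative to females in secondary cells was -0.58. Both ALPL values involve the secondary October female libraries, where the keratinocyte markers were also highest, and the part of any keratinocytes was not tested. ALPL differences that involve primary June female cells, the group through which it passed the filter, were not tested.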

How the results depend on the processing

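Of 90 log2 differences of the 5 genes above 1 in every library, 66 were called, where 18.5% to 59.6% of all genes were called in the same contrasts. None of the 66 changed sign under any alternative run. 57 of the 66 stayed called under all of them, and 7 of the 24 uncalled ones were called under at least 1. With a common total, 3 of the 5 genes were called between secondary and primary June male cells and 4 in October male cells, against 5 and 2 reported. ALPL dropped out with a filter on 6 libraries and without any 1 primary June female library, and had no value with the compared groups alone where that group was not among them. With a pseudocount of 0.1, the follicle type by month difference of NCAM1 in females, 0.14 and not called, was called at 0.57. Between secondary and primary June female cells the count ran from 3 to 5 over the libraries left out. With the compared groups alone, 2686 genes were called between secondary and primary October female cells, against 4628. With a common total the median of all genes moved by -0.167 in the follicle type by month difference of males and by -0.107 in the month by sex difference of secondary cells, and by under 0.1 elsewhere.

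The signs that turned belonged to uncalled values near 0. With a common total, THY1 became 0.00 for secondary against primary October male cells, 0.01 for October against June primary male cells and -0.03 for male against female secondary October cells, and PDGFRB -0.05 for the follicle type by month difference of males. With median-of-ratios factors, the follicle type by sex difference of THY1 in October was 0.01. With 1 library left out, values ranged from -0.05 to 0.09 for that THY1 difference, from -0.01 to 0.13 for THY1 in secondary against primary October female cells, from -0.01 to 0.04 in male against female secondary October cells and from -0.07 to 0.07 in male against female primary October cells. They ranged from -0.10 to 0.02 for ALPL in secondary against primary October male cells and from -0.03 to 0.09 for the month by sex difference of PDGFRB in primary cells. The cause was not tested. With replicate number as a block, 6623 genes were called between secondary and primary June female cells, against 6435, and no call of the 90 changed; same-numbered deviations had a median correlation of 0.0335, and 12 of 24 libraries deviated most like one of their own number. Depth is unknown, so no counting error can be given.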

Other observations

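Surface markers of mesenchymal stem cells and fibroblasts outside the 8 genes were followed as a list of 23, of which 19 were tested. ENG, CD44 and ALCAM of this list were lower in October than in June in all 4 kinds of cells. They were picked from the list and do not stand for all of it. ALCAM fell in October, with log2 differences of -2.33 in primary male, -1.79 in primary female, -1.72 in secondary female and -1.32 in secondary male cells, and CD44 with -1.17, -1.10, -0.68 and -0.32 in secondary male, primary male, secondary female and primary female cells. NT5E, the ectoenzyme CD73, rose in October in male cells, by 0.59 in secondary and 0.50 in primary cells, and fell in female cells, with log2 differences of -0.18 in secondary and -0.34 in primary cells. Over the list the October against June counts were 5 higher and 8 lower in secondary male, 1 higher and 9 lower in secondary female, 4 higher and 11 lower in primary male and 2 higher and 10 lower in primary female cells, against 56.5%, 51.3%, 55.5% and 48.2% of all genes called. ITGB3, an integrin subunit, was lower in secondary than in primary cells in October females, with a log2 difference of -1.45, in June females, with -1.18, and in June males, with -0.95, and higher in October males, with 0.20. CD34 was at 0 in 15 libraries and never above 0.11.

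Of 24 other papilla genes 21 were tested, and 8 higher and 9 lower were called between secondary and primary June female cells (81% of the list against 49.3% of all genes called), 5 higher and 13 lower in June male (85.7% of the list against 59.6% of all genes), 6 higher and 9 lower in October female (71.4% of the list against 35.5% of all genes) and 6 higher and 4 lower in October male cells (47.6% of the list against 18.5% of all genes). FGF7, a growth factor for the follicle epithelium, was lower in secondary cells in 3 of these, with log2 differences of -2.05, -1.78 and -1.70 in June female, June male and October female cells, and differed by 0.04 in October male cells. SOX2, a transcription factor of some mouse papillae, averaged 14.2 ± 0.738 in secondary October male cells against 15.9 ± 1.73 in primary October male cells, and 0.333 ± 0.351 in secondary October female cells against 12.4 ± 0.909 in primary October female cells (SD, n = 3 each). In secondary June cells SOX2 averaged 0.26 ± 0.0361 in males and 0.257 ± 0.176 in females.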
